A study of Mus musculus with 12 samples.

Results

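The miR-17~92 cluster is a set of miRNA hairpins cut from a single primary transcript, and its 6 abundant mature products were followed in mouse serum. The members were chosen by accession from the mouse tables, as MIMAT0000649 (miR-17-5p), MIMAT0000528 (miR-18a-5p), MIMAT0000651 (miR-19a-3p), MIMAT0000529 (miR-20a-5p), MIMAT0000513 (miR-19b-3p) and MIMAT0000539 (miR-92a-3p). They are 6 of the 874 mature miRNAs with a count in at least 1 mouse table. The rule that names them uses no measured value, but earlier results of these data were known when it was set. Serum came from 3 female athymic, immunodeficient NCr nude mice (mice 1046, 1047 and 1069), aged 4 to 6 weeks at grafting. It was taken 1 week before and 2 weeks after SH-SY5Y cells had been placed under the kidney capsule. These cells are a long-established line derived from a human neuroblastoma. RNA isolated from each of the 6 sera was split, and in 1 of the aliquots the 5′ tRNA fragments were captured with biotinylated DNA probes and streptavidin beads and removed (depleted), while the other was left as it was (undepleted). The 12 small RNA libraries therefore form 4 groups of 3: before, depleted; before, undepleted; after, depleted; and after, undepleted. All mice carried the graft at the later time point and none did at the earlier one. The effect of the graft and that of elapsed time, age and surgery therefore cannot be told apart.

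The cluster is a well known oncogenic miRNA locus, and its transcription is activated by MYC and, in neuroblastoma, by MYCN. A miRNA finds its targets mainly through its seed, the bases near its 5′ end, so members with the same seed share most targets. miR-17 and miR-20a repress cell cycle regulators such as Cdkn1a and E2f1, miR-18a acts on TGF-beta signalling, and miR-92a represses the integrin Itga5 in endothelium.

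The mature sequences are shown because the seeds divide the cluster into families and because small base differences decide which reads a member can receive. They are RefSeq sequences of the GRCm38.p6 mouse assembly, written 5′ to 3′ with the seed (bases 2 to 8) in capitals.
miR-17-5p: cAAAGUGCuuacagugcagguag
miR-20a-5p: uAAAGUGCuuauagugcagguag
miR-18a-5p: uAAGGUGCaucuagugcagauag
miR-19a-3p: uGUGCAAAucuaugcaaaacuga
miR-19b-3p: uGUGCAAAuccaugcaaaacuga
miR-92a-3p: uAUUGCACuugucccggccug
The sequences fall into 4 seed families: miR-17 with miR-20a (AAAGUGC), miR-19a with miR-19b (GUGCAAA), and miR-18a (AAGGUGC) and miR-92a (AUUGCAC) on their own. miR-19a-3p and miR-19b-3p differed at a single position, U11C when counted from 1 at the 5′ end of miR-19a-3p, and their longest shared run was 12 nt.

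All 6 hairpins lie on chromosome 14, plus strand, within 836 nt (GRCm38, 115043671 to 115044506). They sit in the exon from 115043271 to 115046727 of the long intergenic non-coding RNA gene Mir17hg (115042879 to 115046727). Their order from 5′ to 3′ is Mir17, Mir18, Mir19a, Mir20a, Mir19b-1 and Mir92-1. miR-19b-3p and miR-92a-3p are also made from hairpins on chromosome X (Mir19b-2, 52741983 to 52742066, and Mir92-2, 52741838 to 52741928, minus strand), and a count of these members cannot be assigned to either chromosome. Reads of at least 15 nt were kept by the authors, and miR-18a-5p shares a run of 17 nt with miR-18b-5p of chromosome X, so its counts are uncertain to that extent. The other members shared at most 13 nt with the most similar mature mouse miRNA of the comparison (miR-17-5p with miR-106a-5p and miR-20a-5p with miR-20b-5p).

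The 6 depleted libraries held 938706 to 2271549 mouse miRNA counts and the 6 undepleted libraries 21235 to 97183, so values of the undepleted arm rest on far fewer reads. The undepleted library of mouse 1069 before injection was the smallest, and it held 3 counts of miR-20a-5p and 1 of miR-18a-5p. In both arms the serum of mouse 1069 before injection stood apart, because it had the lowest share of cluster counts of its arm. That share was 4.48% of mouse miRNA counts in the depleted library (exact 95% binomial interval 4.44 to 4.52%) and 3.47% in the undepleted library (3.22 to 3.72%). The intervals cover counting error only, since PCR copies were not marked with molecular identifiers.

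The cluster was an abundant part of serum miRNA, and nearly all of it was miR-92a-3p. In the depleted libraries the 6 members together made up 4.48 to 6.41% of mouse miRNA counts, and miR-92a-3p alone held 94.7 to 95.9% of the cluster's counts. In the undepleted libraries the same shares ran from 3.47 to 6.16% and from 92.9 to 96.8%.

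Levels are given as counts scaled to a library total of 1000000 mouse miRNA counts (CPM), with the SD over the 6 sera of an arm. A mature miRNA molecule gives a single read, so no correction for length was needed, but counts were not calibrated to numbers of molecules. In the depleted libraries miR-92a-3p stood at 53575 ± 6353 CPM and ranked 6 of the 861 miRNAs counted in that arm. miR-19b-3p followed with 1266 ± 274 CPM (rank 63). miR-19a-3p (457 ± 127 CPM, rank 95), miR-17-5p (403 ± 33.8 CPM, rank 98) and miR-20a-5p (392 ± 55.2 CPM, rank 100) lay close together. miR-18a-5p was the scarcest with 51.6 ± 9.02 CPM (rank 184), from 35 to 130 counts per library. The log2 ratio of miR-18a-5p to miR-92a-3p was −10.02 ± 0.22 in the depleted libraries, and the order of levels was not the order of the hairpins. Counts of miR-19b-3p and miR-92a-3p can include products of their chromosome X hairpins. The levels therefore do not give the output of a single transcript.

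**Figure D1:**
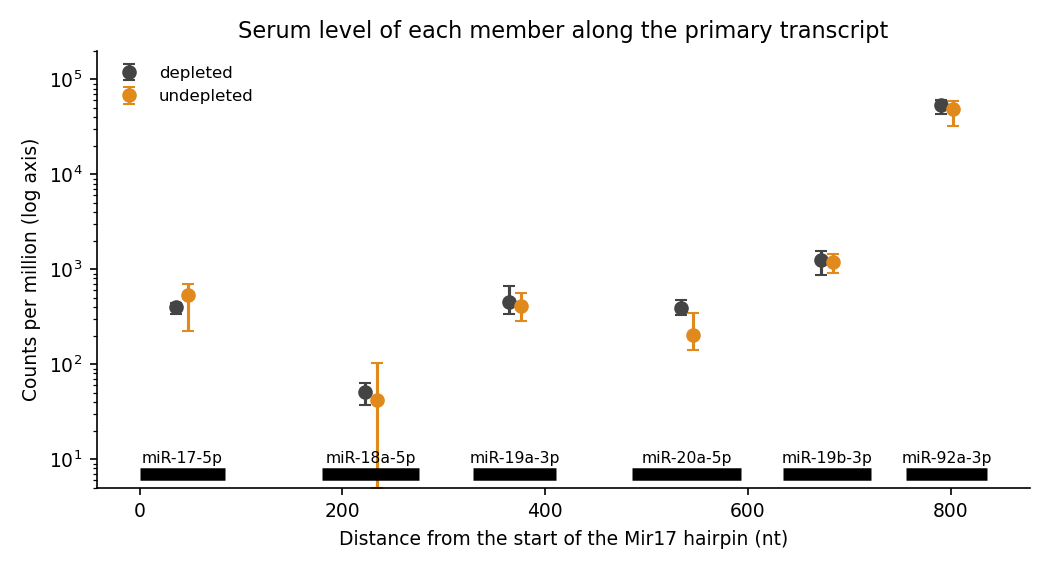
Mean level of each member in CPM (log axis) against the position of its hairpin on the primary transcript, in nt from the start of the Mir17 hairpin, for the 6 depleted and the 6 undepleted libraries. Points are means, bars run from the lowest to the highest library (to the bottom of the axis where the lowest is 0), and black boxes are the hairpins. miR-92a-3p, drawn at the last hairpin, stands far above the others in both arms. Counts of miR-19b-3p and miR-92a-3p can also come from hairpins on chromosome X and are drawn at the chromosome 14 position.

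The order of neighbouring levels was tested on the ratio of both counts within a library, which does not depend on scaling between libraries. In the depleted libraries miR-92a-3p exceeded miR-19b-3p by 5.42 ± 0.19 on the log2 scale (SD, 6 sera, 42.9-fold), and miR-19b-3p exceeded miR-19a-3p by 1.48 ± 0.20 (2.79-fold). miR-20a-5p exceeded miR-18a-5p by 2.93 ± 0.34 (7.6-fold). Each of these 3 differences had the same sign in 6 of 6 sera and reached the smallest p that 6 sera allow in a two-sided exact sign-flip permutation test (p = 0.03125), which is 0.0521 after Benjamini-Hochberg adjustment over the 5 neighbouring pairs. miR-19a-3p and miR-17-5p did not differ beyond their spread (log2 ratio 0.14 ± 0.31, exact permutation p = 0.281), and neither did miR-17-5p and miR-20a-5p (0.047 ± 0.17, exact permutation p = 0.531). Thus 0 of the 5 pairs passed the adjusted threshold of 0.05 in the depleted libraries, and for 3 of them the unadjusted p was the smallest possible. The 6 sera came from 3 mice, so they are not fully independent.

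The undepleted libraries gave the same order at both ends but not in the middle. There miR-92a-3p stood at 48666 ± 9234 CPM, miR-19b-3p at 1184 ± 198, miR-17-5p at 531 ± 188, miR-19a-3p at 415 ± 100.1, miR-20a-5p at 203 ± 77.4 and miR-18a-5p at 41.9 ± 34.3. miR-17-5p exceeded miR-20a-5p in 6 of 6 undepleted libraries, by 1.31 ± 0.79 on the log2 scale (2.48-fold). Of the 5 pairs, taken from the order of the depleted libraries, 4 passed at an adjusted p of 0.0391 (exact sign-flip permutation test). Each of these 4 had the smallest possible unadjusted p, as 3 pairs had in the depleted libraries. The adjusted value follows from how many pairs reach that limit and does not show stronger differences in the undepleted arm. The undepleted library of mouse 1069 after injection held 0 counts of miR-18a-5p, which allows a level of up to 60.7 CPM (3 counts).

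**Figure D2:**
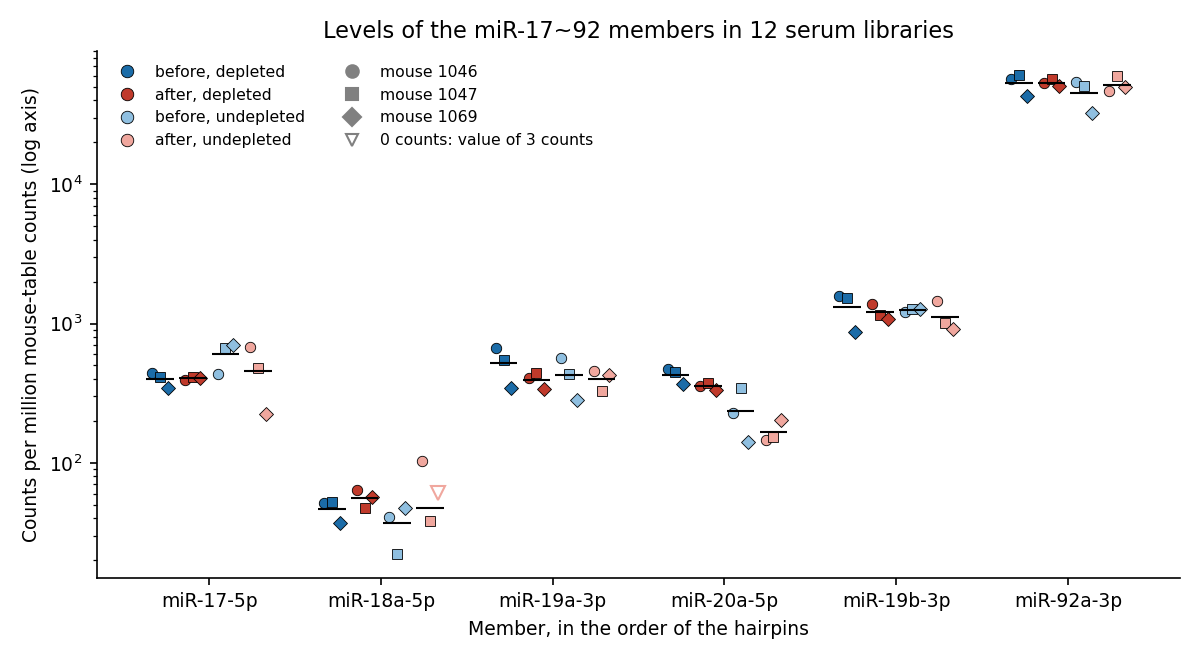
Level of each member in every library in CPM (log axis), coloured by group, with the symbol giving the mouse and a line at the group mean. The open triangle marks a library with 0 counts, drawn at the value of 3 counts. For miR-17-5p and miR-18a-5p the undepleted libraries spread over a wider range than the depleted ones. For miR-19a-3p and miR-19b-3p the SD is larger in the depleted libraries (127 against 100.1 CPM and 274 against 198 CPM). Undepleted libraries of miR-20a-5p lie mostly below the depleted ones.

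The comparison of time points asks which serum miRNAs differ between tumour-bearing and tumour-free mice. In the depleted libraries none of the members passed the test after injection, although all 6 fitted changes were below 0. The largest were those of miR-19a-3p and miR-20a-5p, which were lower after injection in 3 of 3 mice. Values are counts divided by DESeq2 size factors of the 6 depleted libraries, named by mouse in the order 1046, 1047 and 1069.

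miR-20a-5p, which shares its seed with miR-17-5p, had 847, 905 and 548 normalised counts before injection and 513, 539 and 497 after it. Its groups did not overlap, which was also true of 38.1% of the 310 miRNAs tested. miR-19a-3p had 1194, 1101 and 513 before and 583, 640.5 and 504 after. After injection mice 1046 and 1047 had values near those that mouse 1069 had at either time. The fitted log2 fold change was −0.53 for miR-20a-5p (SE 0.27, DESeq2 adjusted p = 0.173) and −0.64 for miR-19a-3p (SE 0.31, DESeq2 adjusted p = 0.152).

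miR-19b-3p, which shares its seed with miR-19a-3p, had 2837, 3057 and 1311 normalised counts before and 1985, 1657 and 1618 after. miR-92a-3p had 102980, 122495 and 64088 before and 75789, 81538 and 76024 after. In both, mouse 1069 was higher after injection and the other mice lower, so the groups overlapped. Their log2 fold changes were −0.41 (SE 0.30, DESeq2 adjusted p = 0.340) and −0.29 (SE 0.27, DESeq2 adjusted p = 0.491).

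miR-17-5p had 801, 831 and 512 normalised counts before and 566, 592 and 613 after, with a log2 fold change of −0.26 (SE 0.27, DESeq2 adjusted p = 0.536). miR-18a-5p had 92.3, 105 and 55.8 before and 91.5, 68.7 and 85.6 after, with a log2 fold change of −0.040 (SE 0.35, DESeq2 adjusted p = 0.960). For these members too the spread before injection came from mouse 1069, and the libraries after injection lay closer together.

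**Figure D3:**
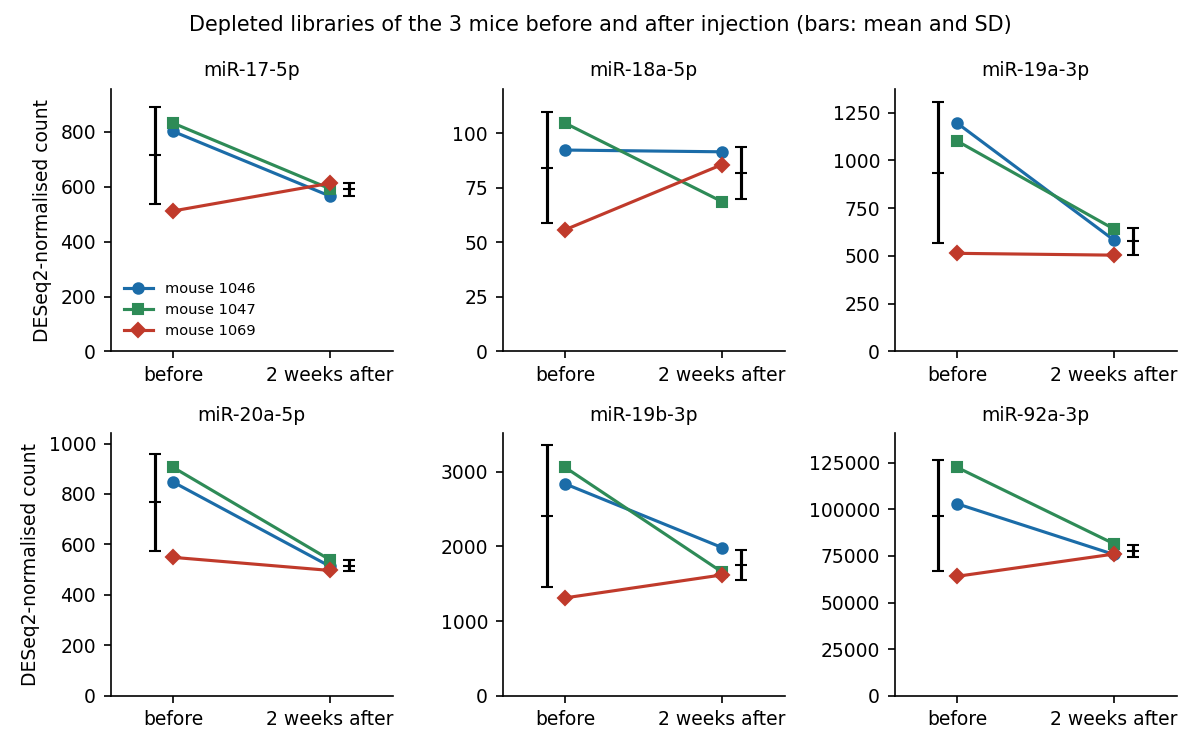
DESeq2-normalised counts of the 6 members in the depleted libraries of 3 mice before and 2 weeks after injection, with 1 line per mouse and the mean and SD beside each time point (axes start at 0). Mice 1046 and 1047 start high and end lower for miR-17-5p, miR-19a-3p, miR-20a-5p, miR-19b-3p and miR-92a-3p, whereas mouse 1069 starts low and changes less.

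To be called, a miRNA needed an adjusted p (Benjamini-Hochberg) below 0.05 together with a difference of 2-fold or more. By that rule 0 of the 6 members were called by DESeq2, against 10.6% of the 310 miRNAs tested. With edgeR 0 members were called, against 40 of 861 miRNAs. On the adjusted p alone DESeq2 again called 0 of 6, against 16.8%. At an unadjusted p under 0.05 it was 2 of 6, against 93 of all 861 miRNAs fitted, including those without an adjusted p. The median log2 fold change of the members was −0.35, and that of all tested miRNAs was −0.093, with 57.1% of them below 0.

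How many members passed on the adjusted p depended on which mice were included. With only mice 1046 and 1047, 4 of the 6 members passed on the adjusted p, all lower after injection, against 18.7% of tested miRNAs that were lower by that rule. These were miR-19a-3p (log2 fold change −0.86, DESeq2 adjusted p = 6.2e-05), miR-19b-3p (−0.66, adjusted p = 0.000926), miR-20a-5p (−0.69, adjusted p = 0.00237) and miR-92a-3p (−0.49, adjusted p = 0.00814), and none of them reached 2-fold. Without mouse 1046, and likewise without mouse 1047, 0 of the 6 members passed on the adjusted p. In the same order, the log2 fold changes of these 4 were −0.43, −0.36, −0.43 and −0.21 without mouse 1046. Without mouse 1047 they were −0.53, −0.15, −0.38 and −0.092. Scaling by total counts in place of size factors moved the median of all miRNAs by 0.21 on the log2 scale, and under it miR-17-5p (0.016) and miR-18a-5p (0.23) were above 0. In the same libraries miR-16-5p, a miRNA abundant in red blood cells, fell from 213564 ± 45918 to 97104 ± 13048 normalised counts (log2 fold change −1.07, SE 0.25, DESeq2 adjusted p = 0.000882). Its part in the values of the members was not tested. In serum, fewer releasing cells and less RNA released per cell cannot be told apart.

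The undepleted libraries of the same sera gave no call either, and they held only 3 to 60 counts of miR-17-5p, miR-19a-3p and miR-20a-5p each. After against before injection, the log2 fold change was −0.53 for miR-20a-5p (SE 0.47, DESeq2 adjusted p = 0.533), −0.38 for miR-17-5p (SE 0.40, adjusted p = 0.584), −0.24 for miR-19a-3p (SE 0.40, adjusted p = 0.777) and −0.24 for miR-19b-3p (SE 0.31, adjusted p = 0.648). For miR-92a-3p it was 0.045 (SE 0.27, DESeq2 adjusted p = 0.928). miR-18a-5p, with 0 to 7 counts per library, was removed by independent filtering and has no adjusted p.

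The values by library were widely spread. In the order of mice 1046, 1047 and 1069, miR-20a-5p had 13.7, 22.3 and 6.92 normalised counts before and 7.88, 8.30 and 10.9 after. miR-92a-3p had 3257, 3256 and 1577 before and 2490, 3215 and 2670 after. In both, mouse 1069 was lowest before injection, and mice 1046 and 1047 had lower values afterwards, as in the depleted arm. The groups of both overlapped here, whereas those of miR-20a-5p had not overlapped in the depleted arm. Of the 6 members 0 were called by DESeq2, against 11.1% of the 108 miRNAs tested (19.4% on the adjusted p alone). With edgeR 0 members were called, against 15 of 442 miRNAs. In DESeq2 0 members had an unadjusted p under 0.05, against 35 of the 108. The groups of 0 members were free of overlap, against 39.8% of tested miRNAs. When the smallest library was left out, the log2 fold change of miR-92a-3p turned to −0.24 (DESeq2 adjusted p = 0.262).

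**Figure D4:**
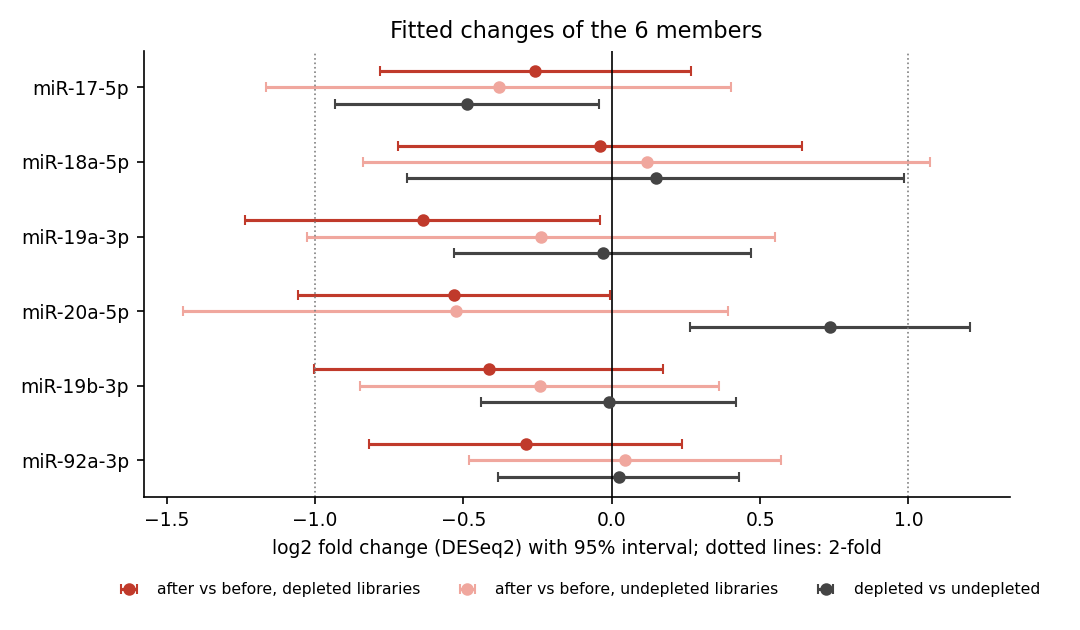
Log2 fold change from DESeq2 with its 95% interval for each member, after against before injection in the depleted and in the undepleted libraries, and depleted against undepleted over all 12 libraries. Most intervals include 0. For depleted against undepleted libraries, that of miR-20a-5p lies wholly above 0 and that of miR-17-5p wholly below it, and after injection in the depleted libraries those of miR-19a-3p and miR-20a-5p lie wholly below 0, the last by a narrow margin.

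The change after injection was also compared between the arms, as an interaction of time point and depletion. None of the 6 members passed, and neither did any of the 874 miRNAs (0%), with 0 members and 3 miRNAs at an unadjusted p under 0.05 in DESeq2 and 0 calls in edgeR. That fit does not use the pairing of aliquots by serum, and the difference between arms was estimated loosely. For miR-92a-3p it was −0.28 on the log2 scale with a 95% interval from −1.12 to 0.57, and for miR-18a-5p the interval ran from −2.25 to 1.45. With the serum as a replicate block in edgeR, 2 of the 874 miRNAs and 0 members were called, and miR-92a-3p came nearest among the members (log2 difference −0.43, edgeR adjusted p = 0.0606). Its normalised level was higher in the depleted than in the undepleted aliquot in 3 of 3 sera before injection, by 0.020 to 0.32 on the log2 scale, and lower in 3 of 3 after it, with differences from −0.24 to −0.019.

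Whether removal of the tRNA fragments altered the proportions of the members was examined in the aliquots of each serum. For 4 of the 6 members the fitted change was near 0: miR-92a-3p at 0.023 (95% interval −0.38 to 0.43), miR-19b-3p at −0.010 (−0.44 to 0.42), miR-19a-3p at −0.030 (−0.53 to 0.47) and, with a wide interval, miR-18a-5p at 0.15 (−0.69 to 0.98), all on the log2 scale. The exceptions were the pair that shares the AAAGUGC seed, and they went in opposite directions.

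miR-20a-5p was higher in the depleted aliquot in 6 of 6 sera. Its normalised counts on the scale of all 12 libraries had a lowest, median and highest value of 91.7, 98.8 and 152 in the depleted libraries and 37.8, 54.8 and 121 in the undepleted ones. The ranges overlapped, but each serum moved up. The log2 fold change was 0.74 (SE 0.24, DESeq2 adjusted p = 0.0188), a model fold of 1.66, below the 2-fold limit. This fit did not use the pairing of aliquots by serum. The same direction in 6 of 6 sera was seen for 24.3% of the 383 miRNAs tested.

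miR-17-5p was lower in the depleted aliquot in 5 of 6 sera, with 85.6, 115 and 142 as lowest, median and highest normalised counts in the depleted libraries and 68.9, 168 and 233 in the undepleted ones. Its log2 fold change was −0.49 (SE 0.23, DESeq2 adjusted p = 0.167), which missed the threshold. Without mouse 1069 it passed on the adjusted p (log2 fold change −0.56, DESeq2 adjusted p = 0.0133), but not without mouse 1046 (−0.44, adjusted p = 0.889) or mouse 1047 (−0.38, adjusted p = 0.766). With TMM factors the log2 fold change was −0.23 (DESeq2 adjusted p = 0.606), and with edgeR it was −0.23 (edgeR adjusted p = 0.900).

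By the rule with the 2-fold limit, 0 of the 6 members were called by DESeq2, against 8.36% of 383 miRNAs, and on the adjusted p alone 1 member was, against 14.4%. At an unadjusted p under 0.05 there were 2 members and 83 of all 874 miRNAs fitted, including those without an adjusted p. With edgeR and TMM scaling miR-20a-5p reached a log2 fold change of 1.02 (edgeR adjusted p = 0.00383) and was called, against 5.03% of 874 miRNAs. With TMM factors in DESeq2 its log2 fold change was 0.99 (adjusted p = 0.000852) and the median of all tested miRNAs was higher by 0.26 than with the size factors, so relative to that median the difference of miR-20a-5p was not larger. The value rests on 3 to 31 counts of miR-20a-5p per undepleted library. In DESeq2 it did not pass on the adjusted p without mouse 1046 (log2 fold change 0.58, DESeq2 adjusted p = 0.889) or without mouse 1047 (0.88, adjusted p = 0.0921). It passed on the adjusted p without mouse 1069 (0.76, DESeq2 adjusted p = 0.00407) and with the serum as a replicate block (0.78, adjusted p = 0.00231). All of these were below 2-fold. In the DESeq2 fit of all 12 libraries without a block, miR-16-5p was lower in the depleted libraries (log2 fold change −0.56, SE 0.16, DESeq2 adjusted p = 0.00525).

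The ratio of miR-17-5p to miR-20a-5p within a library is free of any scaling. It compares the paralogues that differ in few bases and share a seed, and it was examined after the values had been seen, together with the 14 other ratios between members. In the undepleted libraries before injection the log2 ratio was 0.92, 0.94 and 2.15 in mice 1046, 1047 and 1069, and after injection 2.15, 1.58 and 0.13. In the depleted libraries it was −0.080, −0.12 and −0.10 before and 0.14, 0.14 and 0.30 after. Thus miR-17-5p was the more abundant by 2.48-fold in the undepleted aliquots, whereas both were nearly equal in the depleted ones (1.03-fold). The difference between aliquots was −1.26 ± 0.86 on the log2 scale, in the same direction in 5 of 6 sera (exact sign-flip permutation p = 0.0625, adjusted over 15 ratios 0.188).

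Over the 15 ratios, 4 differed in the same direction in all 6 sera, and 0 passed adjustment (exact sign-flip permutation test, smallest adjusted p = 0.117). The 15 ratios come from 6 members and are not independent, and the same count over ratios of other miRNAs was not made. Of the 4 ratios, 3 involve miR-20a-5p. In the depleted aliquots its log2 ratio to miR-19b-3p was higher by 0.86 ± 0.59, its log2 ratio to miR-92a-3p was higher by 0.78 ± 0.41, and the log2 ratio of miR-19a-3p to it differed by −0.84 ± 0.45. In the remaining pair the log2 ratio of miR-17-5p to miR-18a-5p differed by −0.65 ± 0.78. It rests on 0 to 7 counts of miR-18a-5p per undepleted library, and the smallest difference of a serum was −0.0090.

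In the depleted libraries the ratio of miR-17-5p to miR-20a-5p was below 0 before injection and above 0 after it in 3 of 3 mice, a difference of 0.29 ± 0.095 on the log2 scale. The counting error of a single ratio was 0.071 to 0.11. The log2 ratio of miR-20a-5p to miR-92a-3p was lower after injection in 3 of 3 mice, by a difference of −0.28 ± 0.11 in the depleted and −0.66 ± 0.59 in the undepleted libraries, and the groups overlapped in neither arm. In the depleted arm 4 of 15 ratios (26.7%) did not overlap between time points, and in the undepleted arm 1 of 15 (6.67%). With 3 mice against 3 the exact permutation test cannot go below p = 0.1, the value each of these reached, and none passed adjustment over the 15 ratios of an arm. That test does not use the pairing by mouse. The paired sign-flip permutation test gave p = 0.25 for each of these ratios. The 15 ratios share members and are not independent, and the share among ratios of other miRNAs was not determined. For normalised counts of single miRNAs, 38.1% of those tested did not overlap in the depleted arm and 39.8% in the undepleted arm.

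**Figure D5:**
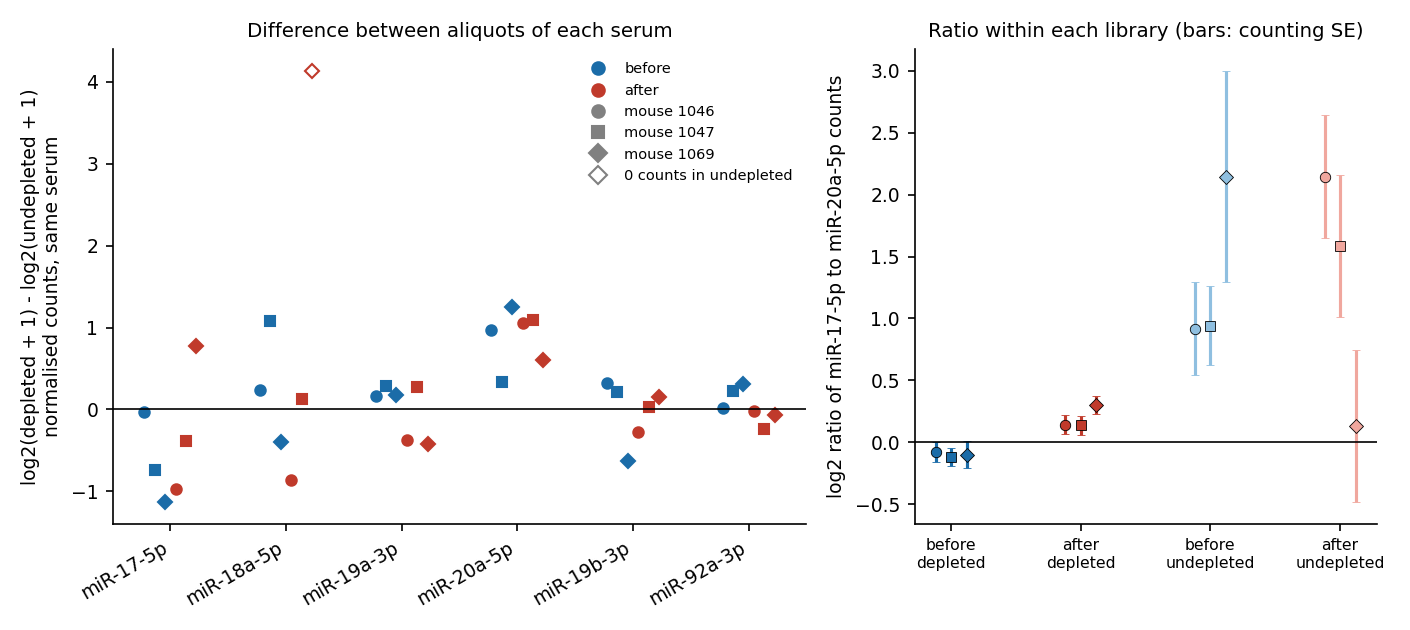
Left, the difference of log2 normalised counts between the depleted and the undepleted aliquot of each serum, with a pseudocount of 1; the open symbol is the serum whose undepleted library had 0 counts of miR-18a-5p, so that its height depends on the pseudocount. Right, the log2 ratio of miR-17-5p to miR-20a-5p counts in each library, with bars for the counting standard error. All 6 sera lie above 0 for miR-20a-5p on the left, and on the right the depleted libraries lie near 0 with short bars while undepleted ones reach 2.15.

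The members varied alike across the 6 depleted libraries. Likeness was measured as the root mean square difference of centred log2 normalised counts from the mean profile of the members, a smaller value being more alike. It was 0.078 for miR-92a-3p, 0.10 for miR-17-5p, 0.12 for miR-19b-3p, 0.13 for miR-20a-5p, 0.20 for miR-19a-3p and 0.21 for miR-18a-5p, each of which is itself part of that mean. The median of the 207 other miRNAs with a mean of at least 50 normalised counts was 0.53. The closest of these were MIMAT0000215 (0.10) and MIMAT0004825 (0.11). For every member, 1 to 6 of the 207 non-members were nearer than its nearest fellow member. Non-members far outnumber fellow members, so this comparison cannot decide whether the closeness is particular to the cluster.

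The same reads were also counted against human miRNAs, which matters in mice that carry a human graft. For 5 members the human entry with the closest counts matched the mouse row almost read for read: the summed counts of 12 libraries differed by 4 of 4225 for miR-17-5p, 0 of 542 for miR-18a-5p, 2 of 4649 for miR-19a-3p, 0 of 3927 for miR-20a-5p and 9 of 13105 for miR-19b-3p. These reads do not tell human from mouse molecules. For miR-92a-3p the closest human entry held fewer counts in 12 of 12 libraries, 474517 against 556015 in all (14.7% fewer). Its share of the mouse count was 84.7 ± 1.24% before and 85.8 ± 0.45% after injection in the depleted libraries, and 84.1 ± 1.55% and 86.0 ± 0.72% in the undepleted ones (SD, 3 libraries each). Before injection no human cells were present, and the ranges of the shares at the 2 time points overlapped in both arms. In the order of mice 1046, 1047 and 1069, the share in the depleted libraries was 83.3, 85.8 and 84.9% before and 86.3, 85.8 and 85.4% after, higher after injection in 3 of 3 mice but by less than the rounding in mouse 1047. In the undepleted libraries it was 82.6, 84.0 and 85.7% before and 86.8, 85.7 and 85.4% after, higher in 2 of 3 mice. These differences were not tested.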

How the data were processed

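Small RNA of murine serum was sequenced after TruSeq library preparation with 15 PCR cycles from 50 µl of serum. The authors deposited raw read counts per mature miRNA, 1 mouse and 1 human table per library. According to their methods and processing notes, adaptors were trimmed with Cutadapt 1.8.1, short reads were discarded, the rest was mapped with Bowtie 1.1.2 without mismatches, and reads were assigned by overlap with miRBase coordinates (mouse GRCm38/mm10, human GRCh37/hg19). How reads with several loci were counted is not given in the sources used here. A miRNA that a table does not list was taken as 0.

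The mouse tables were fitted whole with DESeq2 1.42.0 (R 4.3.3): Wald test, zero-centred prior on fold changes, median-of-ratios size factors and independent filtering. Time points were compared within each arm (3 against 3 libraries), depletion over all 12 libraries with time point as a term, and the interaction without the prior. Intervals are 95% intervals of the fitted values. edgeR 4.0.16 and the alternatives named in the closing section were run beside it, and the code was tested on simulated data. Ratios used a pseudocount of 0.5 and SciPy 1.17.1. Mouse numbers in the labels pair the libraries, since those of a mouse share the animal and aliquots share the serum. Deviations from group means correlated between aliquots of a serum (mean r = 0.55 over 115 miRNAs), but not between time points of a mouse (mean r = −0.15 over 213 miRNAs in the depleted and −0.21 over 68 in the undepleted libraries). With 1 serum per mouse and time point, p-values of the time-point comparisons without a block measure the spread between these mice. The depletion and interaction fits without a block treated the 12 libraries as independent, although aliquots share a serum and sera share a mouse. Fits with the serum as a block used differences within a serum. The sign-flip tests of the level order and of depletion took the sera as units.

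The members and lists were chosen with earlier results of these data known. The text names the 6 members, miR-16-5p, the miRNAs nearest to the mean profile of the members (the 2 nearest are printed) and the human entries. The other arms of the hairpins, the paralogous clusters and the marker lists of blood cells and tissues were not analysed here, apart from miR-16-5p, because no table used here ties their names to the accessions of the files.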

Additional observations from a re-analysis of the deposited data

How the results depend on the processing

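In both comparisons of time points and in the interaction, 0 members were called under every alternative run, including the fits with a replicate block, which changed no call of a member. For depletion the count of 0 became 1 with edgeR and 1 without the 2-fold limit, miR-20a-5p in both. Leaving out each mouse gave 0 to 0 for these counts. The 5 neighbour ratios gave 0 adjusted calls in the depleted libraries and 4 in the undepleted ones, where the ratio of miR-19a-3p to miR-17-5p turned to −0.28 (log2). These counts depend on how many pairs reach the smallest possible p. The 4 sera left without a mouse cannot reach an exact permutation p under 0.125.

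Signs of members near 0 turned, and the cause was not tested. All values are log2 fold changes, and none passed the threshold. After injection in the depleted libraries, scaling by total counts (chosen after seeing the data) gave 0.016 for miR-17-5p and 0.23 for miR-18a-5p. In the undepleted libraries, miR-92a-3p was −0.021 with edgeR and −0.018 with TMM factors. For depletion, miR-19a-3p and miR-19b-3p were 0.23 and 0.26 with edgeR, 0.23 and 0.25 with TMM factors, 0.076 and 0.092 with total counts, and 0.0098 and 0.0075 with the serum as a replicate block.

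Without each mouse in turn, the change after injection of miR-18a-5p ran from −0.24 to 0.23 in the depleted and from −0.13 to 0.22 in the undepleted libraries, and that of miR-92a-3p in the undepleted libraries from −0.24 (without the smallest library, also chosen after seeing the data) to 0.27. For depletion the ranges were −0.037 to 0.73 for miR-18a-5p, −0.14 to 0.073 for miR-19a-3p, −0.048 to 0.057 for miR-19b-3p and −0.010 to 0.068 for miR-92a-3p. For the interaction they were −0.25 to 0.98 for miR-17-5p, −1.17 to 0.71 for miR-18a-5p, −0.068 to 0.52 for miR-20a-5p and −0.37 to 0.15 for miR-19b-3p. With 1 to 31 counts of miR-18a-5p or miR-20a-5p in most undepleted libraries, depth limits what these can show.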
